A study of Mus musculus with 4 samples.

Results

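The genes described here build the entry gate of the endoplasmic reticulum (ER) and the first steps of N-glycosylation, in bone marrow-derived macrophages of Mettl3 knockout and control mice. They were chosen by name, as rows of the deposited gene table for the Sec61 translocon, signal peptidase, the TRAP complex, the signal recognition particle (SRP) and its receptor, the enzymes of lipid-linked oligosaccharide assembly, oligosaccharyltransferase, and the glucosidases and lectins that act on the new glycan. All 51 names were found, among 55401 genes in the table, and all 51 had counts high enough to be tested, among 17260 tested genes. Spcs2 and Alg2 drew attention to this pathway because their counts were low in the knockouts, so their difference between genotypes is given as a description and not tested. The question was whether that difference was shared by their complex and pathway or stood alone.

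There were 2 knockout libraries, from LysM-cre, Mettl3fl/fl mice, and 2 control libraries, from Mettl3fl/fl mice, both groups numbered 1 and 3 in the labels. The mice were C57BL/6 and aged 8 weeks, and both groups carry the floxed Mettl3 alleles. Marrow cells were grown into macrophages with M-CSF and were then cultured together with the mouse colon carcinoma line MC38 for 24 h before poly(A) RNA was sequenced. LysM-cre is expressed in myeloid cells, and the labels name neither the deleted exons nor the number of animals behind a library, so p-values measure the spread between these libraries, which may be partly technical.

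Proteins bound for secretion or for membranes carry a signal peptide, which SRP recognises as it leaves the ribosome and brings to the SRP receptor. The Sec61 channel then admits the chain into the ER, with TRAP and Sec62 and Sec63 as partners, and signal peptidase cuts the signal peptide off. In parallel, a glycan is built sugar by sugar on the lipid dolichol by the ALG enzymes, and oligosaccharyltransferase moves it onto asparagines of the entering chain. Glucosidases trim it, and the lectins calnexin and calreticulin hold the glycoprotein while it folds. Macrophages make many secreted and surface glycoproteins, so all of these steps are in constant use.

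Total counts were 62563556 and 79209870 in knockouts 1 and 3 and 55100415 and 61075754 in controls 1 and 3. Mettl3 stood at 13.9 and 19.6 CPM (the count scaled to the library size after TMM normalisation) in knockouts 1 and 3, against 18.3 and 23.2 CPM in controls 1 and 3, so the groups overlapped, and a count over the whole gene cannot check the deletion. Xist stood at 1161.5 and 1351 CPM in knockout 3 and control 3 and at 0.624 and 0.589 CPM in knockout 1 and control 1, so the library number coincides with a female or male pattern, and differences within each number are given beside the pooled ones. The 10 macrophage markers were all detected, 4 with a fold change above 0 and 6 below. They summed to 21672 and 22140 FPKM (fragments per kilobase of transcript, scaled to the depth) in knockouts 1 and 3 and 19395 and 32322 FPKM in controls 1 and 3. Most of that sum was Lyz2, at 17410 and 17488 FPKM in the knockouts and 14941 and 28293 FPKM in the controls. Adgre1, among the 4 above 0, stood at 1692 and 2068 FPKM in the knockouts and at 1334 and 1808 FPKM in the controls, so its groups overlapped. Of 9 epithelial markers listed for MC38 cells, 6 had no count in any library, among them Epcam, Krt8 and Krt18, and the list summed to 0.422 to 0.604 FPKM in the knockouts and 0.213 to 0.441 FPKM in the controls. The 7 fibroblast markers summed to 36.2 and 57.9 FPKM in knockouts 1 and 3, against 45.2 and 92.2 FPKM in controls 1 and 3, and all 7 had a fold change below 0. Neutrophil markers summed to 24.6 and 33.3 FPKM in knockouts 1 and 3 and 18.1 and 23.1 FPKM in controls 1 and 3, with Ly6g at 0 in every library. Most of this sum was S100a8, at 24.6 and 31.1 FPKM in the knockouts and 18.1 and 20.9 FPKM in the controls. Of the 3 neutrophil markers tested, 2 had a fold change above 0 and 1, Mpo, below 0. The part of other cells in the results below was not tested, and in such bulk libraries fewer cells of a type and less RNA per cell cannot be told apart.

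The start regions of the genes that carry the comparison are shown first, because Spcs2 and Alg2 each begin close to a gene on the opposite strand. Both sequences are RefSeq windows (GRCm38.p6) of 250 bases, 5′ to 3′ on the named gene's strand, ending at the base before its annotated start. The RefSeq start of Spcs2 lies inside the deposited gene, which runs on to base 99863462. Alg2 and Sec61b are annotated 324 bases apart and are read away from each other, so the window of Sec61b lies between the starts of both genes. Capitals mark the CCAAT box, a promoter motif searched on both strands.
Spcs2, chr7:99858884-99859133, minus strand: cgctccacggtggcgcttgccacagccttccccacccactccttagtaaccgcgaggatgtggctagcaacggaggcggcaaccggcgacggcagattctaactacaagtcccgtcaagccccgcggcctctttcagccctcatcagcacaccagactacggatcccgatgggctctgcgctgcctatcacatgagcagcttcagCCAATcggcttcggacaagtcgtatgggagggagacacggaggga
Sec61b, chr4:47474411-47474660, plus strand: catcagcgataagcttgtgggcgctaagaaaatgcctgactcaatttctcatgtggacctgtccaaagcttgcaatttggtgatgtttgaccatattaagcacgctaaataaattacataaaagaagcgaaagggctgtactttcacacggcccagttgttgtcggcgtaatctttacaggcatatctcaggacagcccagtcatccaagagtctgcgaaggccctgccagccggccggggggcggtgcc
The Spcs2 window held 1 CCAAT box and the Sec61b window held 0. Of 40 members with such a window, 19 (47.5%) held a CCAAT box, against 37.5% of 27025 genes.

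Signal peptidase removes signal peptides in the ER membrane. It has a catalytic subunit, Sec11a or Sec11c, a lumenal subunit, Spcs3, and the accessory subunits Spcs1 and Spcs2. Spcs2 (ENSMUSG00000035227, chr7:99837569-99863462, minus strand) stood at 26.0 and 31.7 CPM in knockouts 1 and 3, against 83.2 and 94.3 CPM in controls 1 and 3. Both knockouts lay below both controls. The knockout over control difference was -1.62 ± 0.18 on the log2 scale (SE, 2 libraries each), or 3.07-fold, with -1.68 within number 1 and -1.57 within number 3.

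The partners of Spcs2 had log2 fold changes near 0. Spcs1 had 28.7 and 31.3 CPM in knockouts 1 and 3 and 31.1 and 38.6 CPM in controls 1 and 3, a log2 fold change of -0.22 ± 0.19 with a 95% interval of -0.73 to 0.30. Spcs3 had 119.3 and 136.7 CPM in the knockouts and 101.0 and 124.8 CPM in the controls (log2 fold change 0.18 ± 0.18, interval -0.30 to 0.66). Neither interval reached the value of -1.62 seen for Spcs2. Sec11a had 33.4 and 33.3 CPM in knockouts 1 and 3, inside the span of 25.0 and 42.6 CPM in controls 1 and 3, and its difference was 0.42 within number 1 and -0.35 within number 3. Sec11c had 58.5 and 45.3 CPM in knockouts 1 and 3 and 64.6 and 47.1 CPM in controls 1 and 3, a log2 fold change of -0.11 ± 0.24 (interval -0.74 to 0.53). The median log2 fold change of these 4 subunits was -0.06, with 3 of the 4 below 0, beside a median of 0.00 over all tested genes. It was 0.06 within number 1 and -0.18 within number 3, and turned to 0.148 without control 3 and 0.0248 without knockout 3.

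**Figure D1:**
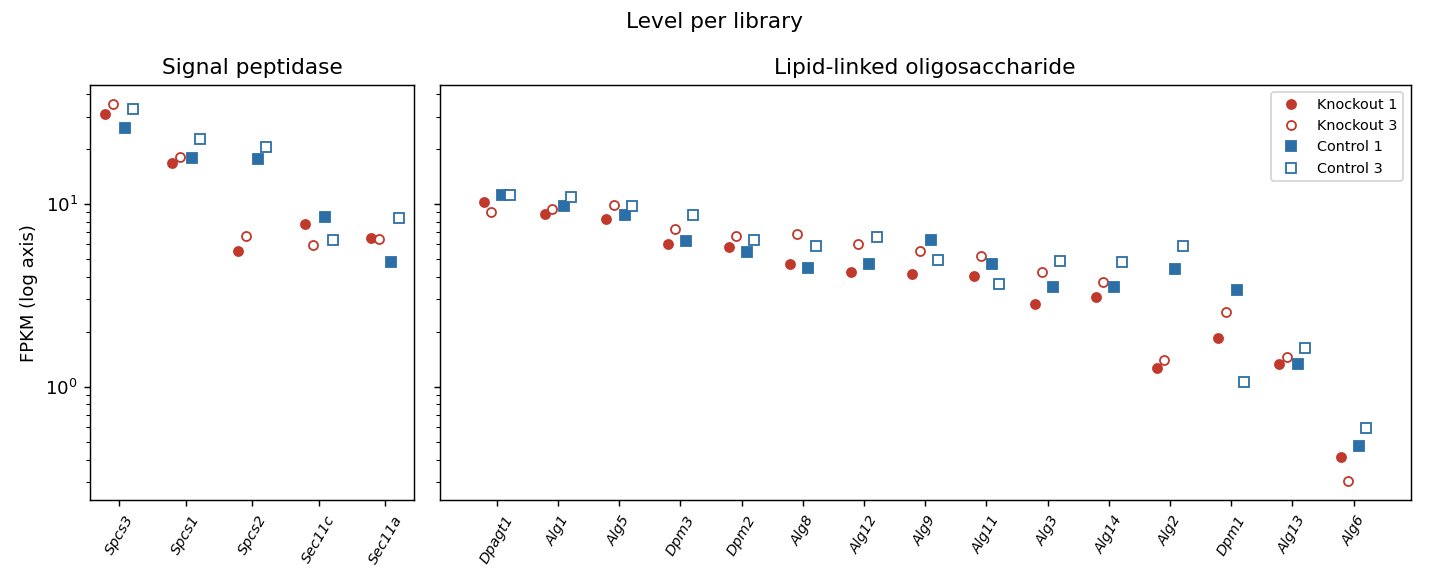
Level of each signal peptidase subunit (left) and each gene of lipid-linked oligosaccharide assembly (right), in FPKM on a log axis, with 1 point per library (circles knockout, squares control, open symbols number 3). The knockouts separate from the controls by a wide gap for Spcs2, at 5.54 and 6.71 FPKM in the knockouts and 17.6 and 20.4 FPKM in the controls, and for Alg2, at 1.26 and 1.41 FPKM in the knockouts and 4.38 and 5.89 FPKM in the controls.

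In FPKM, Spcs2 stood at 0.437 and 0.537 times the geometric mean of the other 4 subunits in knockouts 1 and 3, against 1.499 and 1.445 times in controls 1 and 3. From the highest, it ranked 5 and 3 of the 5 in knockouts 1 and 3 and 3 in both controls. Spcs3 was the most abundant subunit in every library, at 31.0 and 35.2 FPKM in the knockouts and 26.0 and 32.8 FPKM in the controls, and Spcs1 followed with 16.7 and 18.0 FPKM in the knockouts and 17.9 and 22.7 FPKM in the controls. The ratio of Sec11a to Sec11c in FPKM was 0.842 and 1.08 in knockouts 1 and 3 and 0.569 and 1.33 in controls 1 and 3, so the genotypes overlapped. A transcript of Zfp709 shares 382 bases with Sec11a at 93.5% identity, and Zfp709 stood at 15.2 and 22.2 CPM in the knockouts and 16.9 and 16.8 CPM in the controls.

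A copy of Spcs2 could take up its reads. The pseudogene Spcs2-ps (chr2:129378271-129379396), 95.8% identical over 683 bases, had 8 and 0 counts in knockouts 1 and 3 and 0 counts in both controls. Spcs2 and its copy together stood at 26.2 and 31.7 CPM in the knockouts, against 83.2 and 94.3 CPM in the controls, so the difference was as large with the copy added. The gene that starts 40 bases from an Spcs2 start on the other strand, Xrra1 (chr7:99859116-99917822), had 5 and 15 counts in knockouts 1 and 3 and 22 and 4 counts in controls 1 and 3, which is too few to compare. Of the other nearest tested genes, Rnf169, a ubiquitin ligase, stood at 61.7 and 49.2 CPM in the knockouts and 65.3 and 52.7 CPM in the controls (log2 fold change -0.09 ± 0.21). Neu3, a sialidase on the other side, stood at 2.53 and 2.60 CPM in the knockouts and 2.08 and 1.79 CPM in the controls.

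The lipid-linked oligosaccharide begins on the cytosolic face of the ER. Dpagt1 adds the first sugar, Alg13 and Alg14 form the enzyme for the second, Alg1 adds the first mannose, Alg2 the next mannoses and Alg11 the last of the cytosolic ones. Alg2 (ENSMUSG00000039740, chr4:47465067-47474333, minus strand) stood at 4.86 and 5.45 CPM in knockouts 1 and 3, against 16.97 and 22.3 CPM in controls 1 and 3. Both knockouts lay far below both controls. The knockout over control difference was -1.93 ± 0.26 on the log2 scale (SE, 2 libraries each), or 3.81-fold, with -1.80 within number 1 and -2.03 within number 3.

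The enzymes before and after Alg2 on the cytosolic face did not show a difference of that size. Dpagt1 stood at 39.0 and 34.8 CPM in knockouts 1 and 3, below the 43.2 and 41.8 CPM of controls 1 and 3 (log2 fold change -0.21 ± 0.16, interval -0.64 to 0.22). Alg1 stood at 26.2 and 28.3 CPM in knockouts 1 and 3, also below the 29.3 and 32.0 CPM of controls 1 and 3 (log2 fold change -0.17 ± 0.17, interval -0.63 to 0.29). Both genes thus showed groups that did not overlap, at differences about as large as their standard errors. Alg14 stood at 8.57 and 10.5 CPM in the knockouts and 9.89 and 13.2 CPM in the controls, and Alg13 at 10.2 and 11.2 CPM in the knockouts and 10.2 and 12.3 CPM in the controls. Alg11 had 22.3 and 28.8 CPM in knockouts 1 and 3 and 26.1 and 19.7 CPM in controls 1 and 3, with opposite signs within the numbers (-0.23 and 0.55).

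On the lumenal face, Alg3, Alg9 and Alg12 add mannose and Alg6 and Alg8 add glucose. Alg3 stood at 5.36 and 8.06 CPM in knockouts 1 and 3 and 6.72 and 8.99 CPM in controls 1 and 3. Alg12 stood at 11.04 and 15.9 CPM in the knockouts and 12.4 and 17.0 CPM in the controls, and Alg9 at 17.9 and 24.0 CPM in the knockouts and 27.7 and 21.1 CPM in the controls. In all 3 the groups overlapped. Alg6, named because it had the lowest mean level of all members, stood at 0.414 and 0.304 FPKM in knockouts 1 and 3 and 0.475 and 0.595 FPKM in controls 1 and 3. It had the next lowest fold change after Alg2 and Spcs2, -0.57 ± 0.34 (interval -1.48 to 0.33). Alg8 stood at 14.6 and 21.3 CPM in the knockouts and 13.9 and 18.0 CPM in the controls (log2 fold change 0.17 ± 0.29).

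The sugars for these lumenal steps come on dolichol phosphate, from Alg5 for glucose and from the Dpm1, Dpm2 and Dpm3 complex for mannose. Alg5 stood at 34.2 and 41.0 CPM in knockouts 1 and 3 and 36.4 and 39.8 CPM in controls 1 and 3. Dpm2, at 12.7 and 14.7 CPM in the knockouts and 12.1 and 13.8 CPM in the controls, and Dpm3, at 6.22 and 7.50 CPM in the knockouts and 6.499 and 8.83 CPM in the controls, overlapped between groups. Dpm1, the catalytic subunit, was the member whose libraries spread most within a genotype: 15.5 and 21.7 CPM in knockouts 1 and 3, against 28.6 and 8.85 CPM in controls 1 and 3. Its pooled fold change of -0.01 ± 0.60 covered a difference of -0.89 within number 1 and 1.29 within number 3.

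The count of Dpm1 moved opposite to that of an overlapping gene. Gm20716 (chr2:168180986-168230364, minus strand) spans Dpm1 (chr2:168209048-168230379) and shares 895 bases with it at 100% identity. Gm20716 stood at 23.2 and 0 CPM in knockouts 1 and 3 and at 0 and 23.3 CPM in controls 1 and 3, so it was counted in the 2 libraries where Dpm1 was lowest. Together the 2 genes stood at 38.7 and 21.7 CPM in knockouts 1 and 3 and at 28.6 and 32.2 CPM in controls 1 and 3. The level of Dpm1 alone is therefore uncertain.

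**Figure D2:**
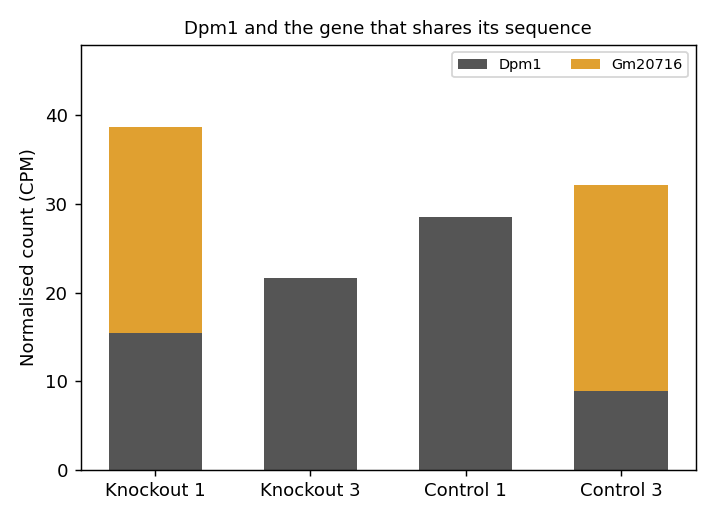
Stacked bars of the normalised count (CPM, axis from 0) of Dpm1 and of the overlapping gene Gm20716 in each of the 4 libraries. Gm20716 has counts in knockout 1 and control 3 only, the libraries in which Dpm1 stands at 15.5 and 8.85 CPM.

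Over the assembly pathway without Alg2, 11 of 14 genes had a fold change below 0, and the median was -0.14, beside 50.2% below 0 over all tested genes and a median of 0.00. The median was -0.17 within number 1 and -0.11 within number 3, and 7 of the 14 lay lower in both numbers (27.2% of all tested genes did). The genotypes did not overlap, with the knockouts lower, for 3 of the 14, namely Dpagt1, Alg1 and Alg6, where 13.4% of all tested genes showed this. Alg1 shares 474 bases at 100% identity with the overlapping gene Eef2kmt, and Alg9 shares 502 bases with 1110032A03Rik, so reads of these genes could have been split, and for Alg2 no such copy was found. The count below 0 depended on single libraries: 6 of 14 lay below 0 without knockout 1, where the median turned to 0.0323, and 7 of 14 without control 3, where it was -0.0109. The median was -0.251 without knockout 3 and -0.181 without control 1. Per length, Alg2 stood at 0.345 and 0.324 times the geometric mean of the other 14 genes in knockouts 1 and 3, against 1.04 and 1.33 times in controls 1 and 3. Its rank from the top in FPKM was 14 of 15 in both knockouts and 10 and 7 in controls 1 and 3.

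Sec61b, the neighbour of Alg2 and itself a channel subunit, stood at 20.0 and 16.9 CPM in knockouts 1 and 3 and 16.5 and 19.7 CPM in controls 1 and 3. Its log2 fold change was 0.02 ± 0.22 (interval -0.55 to 0.60), so the low level of Alg2 was not seen in the gene that starts 325 bases away. On the other side, the nearest tested gene, Gm12430, 10113 bases away, stood at 0.528 and 0.682 CPM in knockouts 1 and 3, below the 0.976 and 0.872 CPM of controls 1 and 3 (log2 fold change -0.61 ± 0.52), with 33 and 54 counts in the knockouts and 53 and 54 counts in the controls. Beyond it, Tgfbr1, a TGF-beta receptor, stood at 87.6 and 149.7 CPM in the knockouts and 99.1 and 150.4 CPM in the controls. A start on the opposite strand within 1000 bases is common in this pathway: 22 of 51 members had one in the annotation used (43.1%), against 29% of 17236 tested genes. Whether such a start bears on the level of a gene was not tested.

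**Figure D3:**
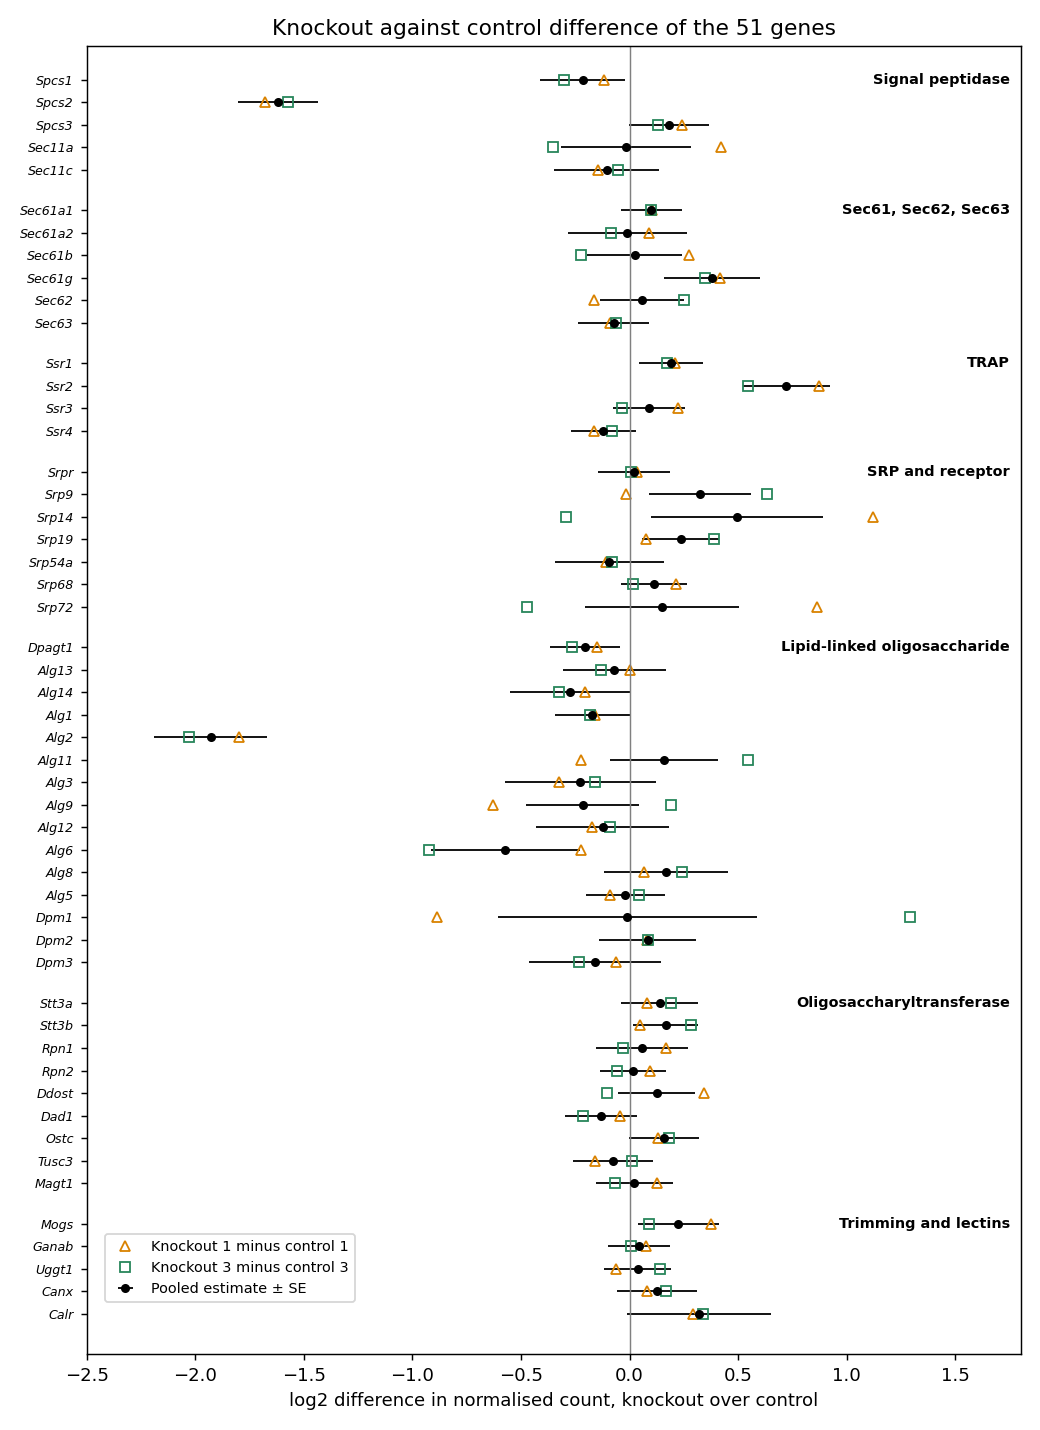
Log2 difference between knockout and control for each of the 51 genes, by complex or step. Black points give the pooled edgeR estimate with its standard error, triangles knockout 1 minus control 1, and squares knockout 3 minus control 3. Alg2 (-1.93) and Spcs2 (-1.62) stand apart to the left, and the other 49 lie between -0.57 and 0.72.

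The Sec61 channel is formed by Sec61a1 or its paralogue Sec61a2 with Sec61b and Sec61g. Sec61a1 stood at 151.7 and 157.9 CPM in knockouts 1 and 3 and 141.3 and 147.5 CPM in controls 1 and 3, a log2 fold change of 0.10 ± 0.14. Sec61a2 stood at 10.6 and 12.9 CPM in the knockouts and 9.98 and 13.7 CPM in the controls. In FPKM, Sec61a1 exceeded Sec61a2 by 9.76 and 8.35 times in knockouts 1 and 3 and by 9.69 and 7.36 times in controls 1 and 3. Sec61a2 shares 909 bases at 100% identity with the overlapping gene Nudt5, so reads could have been split and the ratio is uncertain. Nudt5 stood at 21.1 and 23.0 CPM in the knockouts and 16.5 and 22.6 CPM in the controls. Sec61g had the highest fold change of this group, 0.38 ± 0.22, with 26.7 and 32.1 CPM in knockouts 1 and 3 and 20.0 and 25.2 CPM in controls 1 and 3. A gene 99.1% identical to it over 424 bases, Gm10177, stood at 4.78 and 4.40 CPM in the knockouts and 4.40 and 4.38 CPM in the controls, and both together stood at 31.5 and 36.5 CPM in the knockouts and 24.4 and 29.6 CPM in the controls. Sec62, at 113.2 and 150.6 CPM in the knockouts and 126.9 and 126.8 CPM in the controls, and Sec63, at 116.2 and 133.9 CPM in the knockouts and 123.5 and 139.7 CPM in the controls, overlapped between groups.

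TRAP binds the channel and aids the entry of some signal peptides. Its subunit Ssr2 stood at 57.4 and 43.9 CPM in knockouts 1 and 3, against 31.4 and 30.0 CPM in controls 1 and 3. Both knockouts lay above both controls, and this was the highest fold change of all members, 0.72 ± 0.20 (interval 0.19 to 1.25), with 0.87 within number 1 and 0.55 within number 3. The fold changes of the other subunits were smaller. Ssr1 stood at 147.0 and 155.9 CPM in the knockouts and 127.0 and 138.4 CPM in the controls (0.19 ± 0.15), Ssr3 at 269.9 and 266.3 CPM in the knockouts and 231.3 and 273.1 CPM in the controls (0.09 ± 0.17), and Ssr4 at 44.1 and 45.9 CPM in the knockouts and 49.3 and 48.5 CPM in the controls (-0.12 ± 0.15). A transcript of Rtraf shares 366 bases with Ssr2 at 98.6% identity, and Rtraf stood at 62.9 and 64.1 CPM in the knockouts and 56.7 and 60.1 CPM in the controls.

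In SRP, Srp54a binds the signal peptide, Srp9 and Srp14 form the part that slows translation, and Srp68 and Srp72 bind the particle's RNA. The receptor subunit Srpr had the highest mean FPKM and hardly differed, at 132.5 and 150.7 CPM in knockouts 1 and 3 and 129.4 and 149.8 CPM in controls 1 and 3 (log2 fold change 0.02 ± 0.17). Srp14 stood at 56.2 and 27.3 CPM in knockouts 1 and 3 and 25.8 and 33.5 CPM in controls 1 and 3, so knockout 1 alone was high, and without it the fold change of 0.49 ± 0.40 turned to -0.1. Srp72 likewise had opposite signs, 0.86 within number 1 and -0.47 within number 3. Srp9 stood at 24.5 and 33.5 CPM in the knockouts and 24.7 and 21.5 CPM in the controls, so knockout 3 alone stood out. Srp68 stood at 69.2 and 68.1 CPM in the knockouts and 59.7 and 67.4 CPM in the controls, and Srp19 at 32.5 and 37.2 CPM in the knockouts and 30.7 and 28.5 CPM in the controls. Srp54a stood at 42.6 and 58.4 CPM in the knockouts and 46.0 and 61.8 CPM in the controls. It is 99.6% identical to Srp54b over 3644 bases and 99.5% identical to Srp54c over 3640 bases, so counts can be exchanged among them. The sum of Srp54a and Srp54b stood at 118.4 and 146.9 CPM in the knockouts and 107.2 and 148.6 CPM in the controls. Srp54c, outside that sum, stood at 68.1 and 60.9 CPM in the knockouts and 59.1 and 59.1 CPM in the controls.

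Oligosaccharyltransferase exists in forms with the catalytic subunit Stt3a, which acts at the channel, or Stt3b, which works with Magt1 or Tusc3. Stt3a stood at 204.6 and 247.1 CPM in knockouts 1 and 3 and 193.8 and 216.2 CPM in controls 1 and 3 (log2 fold change 0.14 ± 0.18). Stt3b stood at 171.9 and 184.5 CPM in the knockouts, above the 166.1 and 151.6 CPM of the controls (0.17 ± 0.15). The ratio of Stt3a to Stt3b in FPKM was 0.562 and 0.632 in knockouts 1 and 3 and 0.550 and 0.673 in controls 1 and 3, so the balance of the catalytic forms overlapped between genotypes. Tusc3 over Magt1 was 0.491 and 0.457 in the knockouts and 0.599 and 0.432 in the controls. Tusc3 itself stood at 5.63 and 5.62 FPKM in the knockouts and 6.22 and 5.70 FPKM in the controls, and Magt1 at 11.5 and 12.3 FPKM in the knockouts and 10.4 and 13.2 FPKM in the controls. Rpn1, Rpn2 and Ddost, which hold the complex together, were the most abundant per length: Rpn1 at 48.1 and 55.4 FPKM in the knockouts and 42.5 and 57.8 FPKM in the controls, and Rpn2 at 51.6 and 50.3 FPKM in the knockouts and 47.8 and 53.5 FPKM in the controls. Ddost stood at 58.3 and 46.6 FPKM in the knockouts and 45.6 and 51.2 FPKM in the controls. The lowest fold change of the complex was that of Dad1, -0.13 ± 0.17, with 31.5 and 30.5 CPM in knockouts 1 and 3 and 32.5 and 35.4 CPM in controls 1 and 3. The highest was that of Stt3b, followed by Ostc (0.16 ± 0.16), with 53.6 and 60.8 CPM in the knockouts and 48.9 and 53.7 CPM in the controls. All 9 subunits lay between -0.13 and 0.17.

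After transfer, Mogs and Ganab trim glucose, Uggt1 adds it back to unfolded glycoproteins, and Canx (calnexin) and Calr (calreticulin) bind the glucosylated form. All 5 had a fold change above 0, and the median was 0.13. Calr was by far the most abundant member per length, at 358.5 and 550.7 FPKM in knockouts 1 and 3 and 290.1 and 445.1 FPKM in controls 1 and 3, a log2 fold change of 0.32 ± 0.33, so genotypes overlapped. Canx followed with 107.6 and 125.7 FPKM in the knockouts and 100.7 and 114.4 FPKM in the controls. Mogs stood at 33.7 and 33.9 CPM in the knockouts, above the 26.0 and 31.8 CPM of the controls (0.22 ± 0.19), while Ganab (0.04 ± 0.14) and Uggt1 (0.04 ± 0.15) had the lowest fold changes.

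Taking all 51 members in the comparison of knockout with control, the quasi-likelihood test of edgeR with Benjamini-Hochberg adjustment called 0, where it called 0% of the 17260 genes tested, and 3 members had an unadjusted p under 0.05 (2.27% of all tested genes did): Spcs2, Alg2 and Ssr2. DESeq2 called 2 members, Spcs2 and Alg2, where it called 0.416% of 17776 genes in either direction, and the same 2 with the library number as a term (1.11% of 15832 genes). Since these members were chosen from this comparison, nothing is read from that count. Of the other 49 members DESeq2 called 0. The genotypes did not overlap for 7 members with the knockouts lower, where 13.4% of all tested genes showed this, and for 9 with the knockouts higher, where 13.1% did. Apart from Spcs2 and Alg2, 0 members had a log2 fold change below -1, as 4.76% of all tested genes did, 0 lay above 1, as 3.56% did, and their median was 0.04. The 95% interval stayed above -1 for 45 of these 49. It reached below -1 for Alg3, Alg6, Alg14 and Dpm1, so for these a difference of that size cannot be set aside at this depth and number of libraries.

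**Figure D4:**
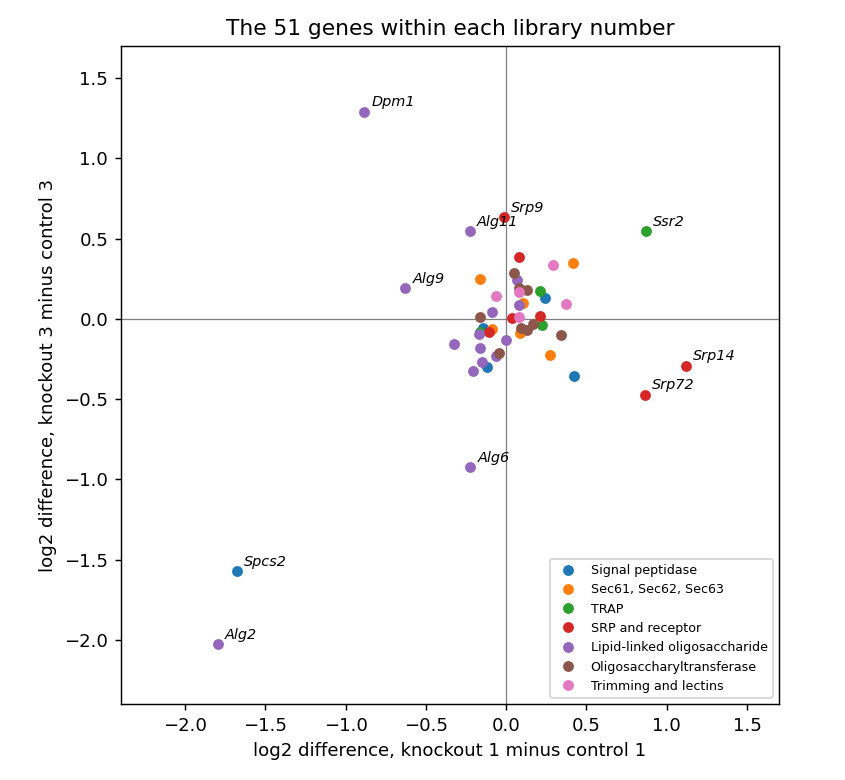
Log2 difference of each of the 51 genes in libraries numbered 1 (horizontal axis) and in those numbered 3 (vertical axis), knockout minus control, coloured by complex or step. Spcs2 and Alg2 lie in the lower left, with differences of -1.68 and -1.80 in number 1 and -1.57 and -2.03 in number 3, and Dpm1 lies in the upper left, where the numbers disagree.

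Lists of related pathways, chosen with earlier results of these data known, stood close to the median of all genes. Of 16 tested pathway genes outside the members (such as Tram1, Prkcsh and the signal peptide peptidases), 10 lay above 0 with a median of 0.04, and of 17 genes of dolichol and sugar donor supply, 9 lay above 0 with a median of 0.01. The 19 genes of the EMC and GET membrane insertion routes had 8 above 0 and a median of -0.02. The 13 tested genes of glycan trimming and ER degradation had a median of 0.05, and the 22 of GPI anchor assembly had 15 above 0 and a median of 0.06. Both edgeR and DESeq2 called 0 genes in each of these lists, and an unadjusted p under 0.05 in edgeR was seen for Pigq and Pigp of the GPI list and for 0 genes of the other 4. By the smallest unadjusted p of each list, Sppl3, an intramembrane protease, stood at 48.91 and 48.05 CPM in knockouts 1 and 3 and 61.0 and 61.6 CPM in controls 1 and 3. Dolk, the dolichol kinase, stood at 7.20 and 6.28 CPM in the knockouts and 7.75 and 11.1 CPM in the controls, and Dhdds, which makes the dolichol chain, at 32.9 and 47.4 CPM in the knockouts and 50.1 and 50.8 CPM in the controls. For these 3 genes, picked by p, both knockouts lay below both controls. That held for 3 of the 16 pathway genes outside the members and 2 of the 17 dolichol and sugar donor genes, against 13.4% of all tested genes. Both knockouts lay above both controls for 4 and 2 genes of these lists, against 13.1% of all tested genes. Pigq, of the first step of GPI synthesis, stood at 36.2 and 33.4 CPM in the knockouts and 21.9 and 24.5 CPM in the controls, and Pigp of the same enzyme at 3.09 and 3.79 CPM in the knockouts and 6.61 and 5.70 CPM in the controls. These 2 genes, also picked by p, thus lay on opposite sides of their controls. Of the 22 genes of the GPI list, both knockouts lay above both controls for 4 and below them for 2, against 13.1% and 13.4% of all tested genes. Emc6 stood at 23.9 and 26.6 CPM in the knockouts and 20.0 and 19.7 CPM in the controls, and Emc10 at 18.7 and 15.5 CPM in the knockouts and 21.5 and 19.9 CPM in the controls. Both knockouts lay above both controls for Emc6 and below them for Emc10, which were picked by p in the same way. Of the 19 genes of their list, 4 lay above and 3 below in this manner, where 13.1% and 13.4% of all tested genes did. Derl2, an ER degradation factor, stood at 61.7 and 69.8 CPM in the knockouts and 65.6 and 50.5 CPM in the controls, and Edem3, which trims mannose, at 78.6 and 90.3 CPM in the knockouts and 77.0 and 77.3 CPM in the controls.

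The members were not chosen by the difference between library numbers, which could therefore be tested. In libraries numbered 3 against those numbered 1, 40 of 51 members had a fold change above 0, where 49.8% of all tested genes did, and the median was 0.16. Both libraries numbered 3 lay above both numbered 1 for 20 members, with 26.2% of all tested genes as background, and below them for 1, Sec11c, with 25.2% as background. The quasi-likelihood test of edgeR called 0 of the 51, where it called 1.03% of all tested genes, and 6 members had an unadjusted p under 0.05 (18.2% of all tested genes did). DESeq2 called 1, Calr, where it called 8.61% of 18262 genes. With genotype as a term edgeR again called 0, where it called 0.707% of all tested genes, and DESeq2 called Calr, where it called 7.34% of 16804. The members were thus not called more often than other genes.

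Calr stood at 1777 and 1405 CPM in knockout 3 and control 3, against 1147 and 937.7 CPM in knockout 1 and control 1. The difference between numbers was 0.61 ± 0.18 on the log2 scale (SE, 2 libraries each; DESeq2 adjusted p = 0.0429, edgeR adjusted p = 0.183). Of the lipid-linked oligosaccharide genes without Alg2, both libraries numbered 3 lay above both numbered 1 for 8 of 14, where 26.2% of all tested genes did, and 11 of the 14 lay above 0 with a median of 0.20. Both edgeR and DESeq2 called 0 of the 14, and Dpm1 (-0.53), Dpagt1 (-0.10) and Alg9 (-0.01) lay below 0. Alg3 (0.50 ± 0.22), Alg12 (0.49 ± 0.17) and Alg8 (0.46 ± 0.17) had the highest fold changes among the 14, with Alg12 and Alg8 at an unadjusted p under 0.05 in edgeR. Sec11c ran the other way, with 45.3 and 47.1 CPM in knockout 3 and control 3 and 58.5 and 64.6 CPM in knockout 1 and control 1 (-0.41 ± 0.12; edgeR adjusted p = 0.177). Its paralogue Sec11a had 0.38 ± 0.21. Spcs2 and Alg2 differed between numbers by 0.21 ± 0.72 and 0.35 ± 0.85, where the standard errors include the difference between genotypes.

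**Figure D5:**
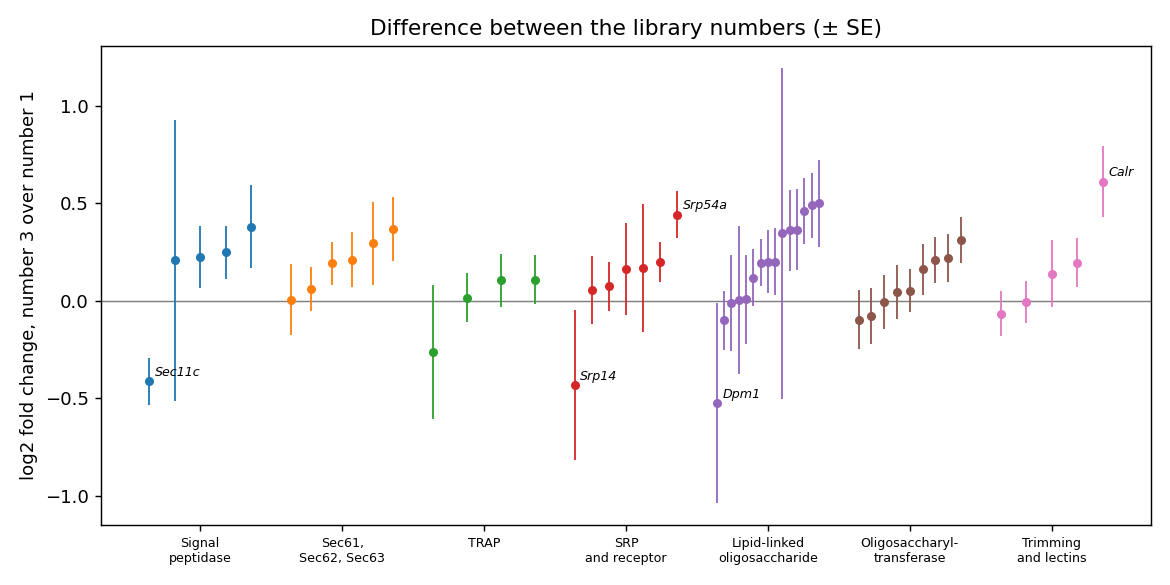
Log2 fold change of each of the 51 genes in the libraries numbered 3 over those numbered 1, with standard errors, by complex or step and sorted within each. Most points lie above 0 (40 of 51), Calr is highest at 0.61, and Sec11c lies below 0 at -0.41.

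Calr, Canx and Alg12 share a sequence that the other members with a window lack. The ER stress response element, CCAAT and CCACG with 9 bases of any kind between them, is known as a site through which unfolded protein in the ER raises transcription. It was searched on both strands of the 250-base windows and contains a CCAAT box. It was found in 3 of 40 members (7.5%) and in 0.13% of 27025 genes. The 3 matches are shown with the fixed letters in capitals, 5′ to 3′ on the strand of the match.
Calr, chr8:84847075-84847093, plus strand: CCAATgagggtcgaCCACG
Canx, chr11:50325800-50325818, minus strand: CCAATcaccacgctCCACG
Alg12, chr15:88819520-88819538, minus strand: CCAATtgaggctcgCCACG
Between knockout and control these 3 genes had log2 fold changes of 0.32 ± 0.33, 0.13 ± 0.18 and -0.12 ± 0.30, and between library numbers 0.61 ± 0.18, 0.19 ± 0.12 and 0.49 ± 0.17. A match is a description of the letters only.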

How the data were processed

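Poly(A) RNA of 2 knockout and 2 control libraries was sequenced as dUTP-marked paired reads, per the labels' protocols. Cutadapt 1.9, HISAT2 2.0.4, StringTie 1.3.4d, edgeR and DESeq2 are named in the submitters' processing notes without roles. Neither the build nor the use of strand in counting is given in the sources used here. Per the file headers, each library has 2 values for a gene, an estimated count and an FPKM, both computed by the authors. Estimated counts were already whole, so none was rounded by the tests; 39.1% of counts from 1 to 24 were multiples of 4, so how many fragments a count stands for is unknown. Deposited FPKM listed 0 as 0.0001, which was set to 0. A further 4 value columns matched no sample and were not used.

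Counts of 17260 genes passing filterByExpr were fitted with edgeR 4.0.16 (R 4.3.3; TMM, quasi-likelihood test, two-sided, Benjamini-Hochberg, threshold 0.05); standard errors were computed as the log2 fold change over the root of F, and 95% intervals from the same fit. Differences within a number are of log2 CPM with a prior count of 2. DESeq2 1.42.0 and limma 3.58.1 were alternatives. With 2 libraries against 2 an exact permutation test cannot go below p = 0.333 and was not run. Start and end matched GENCODE M21 (GRCm38) for 94.2% of the 55141 gene identifiers present in both; coordinates of genes are those of the deposited table. Shared sequence was searched with BLAST 2.17.0 (at least 90% identity over 300 bases) among GENCODE M21 transcripts. Fits were also run on simulated counts with known fold changes, but those results are not given here and nothing above rests on them. The members and lists were chosen with earlier results of these data known. All 51 members are covered; values per library are given for Spcs2, Alg2, the other signal peptidase subunits, oligosaccharide genes of at least 1 FPKM on average, paralogue pairs, in each other group the 2 genes highest in mean FPKM and the 2 with the largest fold change, neighbours and copies, members called between numbers, and the 2 genes of each outside list with the smallest unadjusted p. One gene that this rule names is not reported here.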

Additional observations from a re-analysis of the deposited data

Results flagged for a closer look

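Dpm1 differed in opposite directions within the library numbers, with a log2 difference (knockout minus control) of -0.886 in number 1 and 1.29 in number 3. With 1 library per genotype and number this was not tested. Of the 51 members it was the only one with opposite differences of at least 0.5 each, as 1209 of 17260 tested genes had. Gm20716, which shares its sequence, was at 23.2 and 0 CPM in knockouts 1 and 3 and at 0 and 23.3 CPM in controls 1 and 3, and its part in the result was not tested.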

How the results depend on the processing

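Spcs2 and Alg2 kept their direction under every alternative, from -1.47 to -1.77 and from -1.72 to -2.1 with 1 library left out, and Alg2 was -1.38 by limma on log2(FPKM + 1), a scale that understates low genes. Both were chosen for low counts in these same knockouts, so the kept direction is a description and no support. For all genes between genotypes, edgeR called 0 under each scaling, filter and omission and with the replicate block, limma called 0, and DESeq2 called 74, or 175 with the replicate block (added after seeing the data); of members it called 2 in both cases. The label numbers are not said to mark a shared litter or day. Deviations of same-numbered libraries correlated at 0.419 over genes, and between genotypes the replicate block changed no call of a member in edgeR or DESeq2. Between numbers, edgeR called 177 genes, against 1572 by DESeq2, 1233 by DESeq2 with genotype as a term, 375 without a filter, 122 by edgeR with genotype as a term (the number contrast of the replicate block), and 1 to 87 with 1 library left out; of members, DESeq2 called 1 in both forms and edgeR 0. With 1 library left out, a group of 1 borrows its spread from the other group. The median of the other signal peptidase subunits then ran from -0.15 to 0.148, that of the other oligosaccharide genes from -0.251 to 0.0323 with 6 to 14 of 14 below 0, and that of all other members from -0.0315 to 0.136. Srp14 turned to -0.1 without knockout 1 (range to 0.922), and Srp72 to -0.22 without control 1 and -0.0807 without knockout 1 (range to 0.658). The cause was not tested. Counts of 51 members above 0 between numbers ranged from 37 to 43 over the edgeR and DESeq2 settings and omissions, and limma was not run for them.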
